A study of Mus musculus with 7 samples.

Results

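The genes of MHC class II antigen presentation were examined in chromatin accessibility profiles of mouse B-lineage cells. The 8 members were Ciita, Cd74, H2-Aa, H2-Ab1, H2-Eb1, H2-DMa, H2-Oa and H2-Ob, out of 21938 protein-coding genes in the annotation. They were chosen by name, and every peak of the 7 deposited peak lists that overlapped a gene body or the 10 kb on either side was taken (mm10, the GRCm38 assembly; GENCODE M21). This gave 351 of the 647973 peaks summed over the libraries, which merged into 64 of 145247 regions.

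ATAC-seq, which sequences DNA fragments released from open chromatin, was performed on populations sorted from bone marrow, with 1 library in each of 7 groups. WT pre-proB, proB and preB cells came from Ergfl/fl mice, in which both Erg alleles are floxed and no Cre is labelled. Erg KO pre-proB cells came from Rag1CreT/+;Ergdelta/delta mice, in which the Rag1Cre transgene deletes Erg, an ETS-family transcription factor gene, in lymphoid progenitors and their progeny. Rescue pre-proB, proB and preB cells came from Rag1CreT/+;Ergdelta/delta;IgHVH10tar mice, which carry the same deletion and a functionally rearranged immunoglobulin heavy chain allele. Floxed or deleted Erg alleles were thus shared by all 7 groups, and Cre was labelled only in the Erg KO and Rescue groups. Animal ages are not used here, and the labels give no strain. The study states a C57BL/6J background for its mice, the strain of the reference assembly. The sort gates of the study excluded NK1.1+ and CD11c+ cells. The source names of the 3 Rescue libraries contradict their titles: the library titled pre-proB has the source name proB, the one titled proB has preB, and the one titled preB has pre-proB. Stages below follow the titles.

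MHC class II molecules are heterodimers of an alpha and a beta chain that carry peptides to the surface of B cells, dendritic cells and macrophages for recognition by CD4+ T cells. Their genes share promoter elements, called the X and Y boxes, that are bound by RFX, CREB and NF-Y complexes, and these recruit CIITA, a coactivator that does not itself bind DNA. Mouse B cells acquire surface class II as they mature, dendritic cells express it strongly, and Ciita is transcribed from separate promoters that are used in different cell types.

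The level of a peak is given as the deposited fold, the fragment pileup at the summit plus 1 over a genome-wide background pileup of that library plus 1. The background pileup was between 3.49 and 4.60 and the lowest fold called a peak between 2.32 and 2.63. Accessibility below that level could be present where no peak was called. Read totals were not used here. With 1 library a group there is no replicate spread and no test of a condition. Intervals are exact 95% intervals for fragment counts, which cover counting error only. In such bulk samples, fewer cells with an open site and a less open site in every cell cannot be told apart.

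The shared promoter sequences are shown first. Entries in the RefSeq promoter table (GRCm38.p6) were found for 5 of the 8 members: H2-Aa, H2-Eb1, H2-DMa, H2-Oa and H2-Ob. Ciita, H2-Ab1 and Cd74 had none. The X-Y module was searched as GCAAC followed, after 15 to 40 bases, by CTGATTGG on the same strand, on both strands, with letters chosen after the sequences had been seen. Its Y box holds ATTGG, the reverse complement of the CCAAT box. The module was found in the promoters of H2-Oa, H2-Aa and H2-Eb1, and in 40 of 32851 promoter entries (0.122%). Within the 300 bp around region summits it was found in 4 of the 64 member regions (6.25%) and in 65 of all 145247 regions (0.0448%). Those 4 regions were the H2-Aa and H2-Eb1 promoters, a region upstream of H2-Ab1 and the promoter region of H2-Eb2, a neighbouring beta chain gene. The window at the H2-Ab1 promoter itself held the Y box CTGATTGG but no match to the whole module with the letters chosen. The matches are shown 5′ to 3′ with the X half-site and the Y box in capitals. The promoter stretches run from 110 to 26 bases upstream of the RefSeq start site, at chr17:34092269-34092353 (plus strand) for H2-Oa, chr17:34287849-34287933 (minus strand) for H2-Aa and chr17:34305757-34305841 (plus strand) for H2-Eb1. The other stretches lie at chr17:34261660-34261747 (minus strand) upstream of H2-Ab1 and at chr17:34325518-34325604 (plus strand) at H2-Eb2.
H2-Oa promoter: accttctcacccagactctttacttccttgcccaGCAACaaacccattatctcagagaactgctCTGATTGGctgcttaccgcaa
H2-Aa promoter: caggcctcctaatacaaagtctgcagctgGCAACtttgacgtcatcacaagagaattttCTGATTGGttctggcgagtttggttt
H2-Eb1 promoter: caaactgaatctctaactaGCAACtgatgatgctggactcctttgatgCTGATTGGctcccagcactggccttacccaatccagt
region upstream of H2-Ab1: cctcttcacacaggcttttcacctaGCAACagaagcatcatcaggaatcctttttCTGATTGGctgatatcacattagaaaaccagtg
H2-Eb2 region: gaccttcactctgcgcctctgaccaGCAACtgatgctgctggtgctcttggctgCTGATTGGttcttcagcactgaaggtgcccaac

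Upstream of H2-Ab1 and at H2-Eb2 a summit close to the module was a condition of the search. It read only the 300 bp around region summits there, so those distances are a description. At H2-Aa and H2-Eb1 the module was found both around region summits and in the promoter table. The peak summit lay inside the H2-Eb1 module in 4 of 7 libraries and at most 14 bases from it in the others. At H2-Aa the summit was at most 21 bases from the module, and upstream of H2-Ab1 at most 30 bases, in all 7 libraries. At H2-Eb2 it was at most 70 bases away in the 5 libraries with a peak. At H2-Oa, whose module was found only through the promoter table, the summit lay 335 to 400 bases from the module, in an intron downstream of the start site, in all 7 libraries. A match to these letters is a description of the sequence and not a measurement of factor binding.

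All 8 members had a promoter peak, within 1000 bp of an annotated transcription start site, in all 7 libraries, while 61.4% to 65.5% of coding genes did in each library. The members differed in how far the promoter level varied. The ratio of the highest to the lowest library was 4.53 for Cd74, 3.16 for H2-Aa, 2.80 for H2-Eb1, 2.50 for H2-Oa, 2.36 for H2-Ab1 and 2.06 for H2-DMa. It was 1.55 for H2-Ob and 1.30 for Ciita. The coactivator gene thus had the smallest range of promoter fold in the set, and the invariant chain gene the largest. The Ciita values were taken at different summits in the pre-proB and the later libraries. The fold of 6 members was higher in every pre-proB library than in every proB and preB library, as it was for 20.6% of 15082 coding promoters with a peak in any library. The order was reversed for 0 members and for 26.1% of these promoters. Conventional dendritic cells also express class II, and of the promoters of 10 of their marker genes 5 were higher in every pre-proB library, 2 were lower and 3 overlapped. Their summed fold was 274 to 305 in the pre-proB libraries and 131 to 236 in the others. The part of such cells in the class II levels was not tested.

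**Figure D1:**
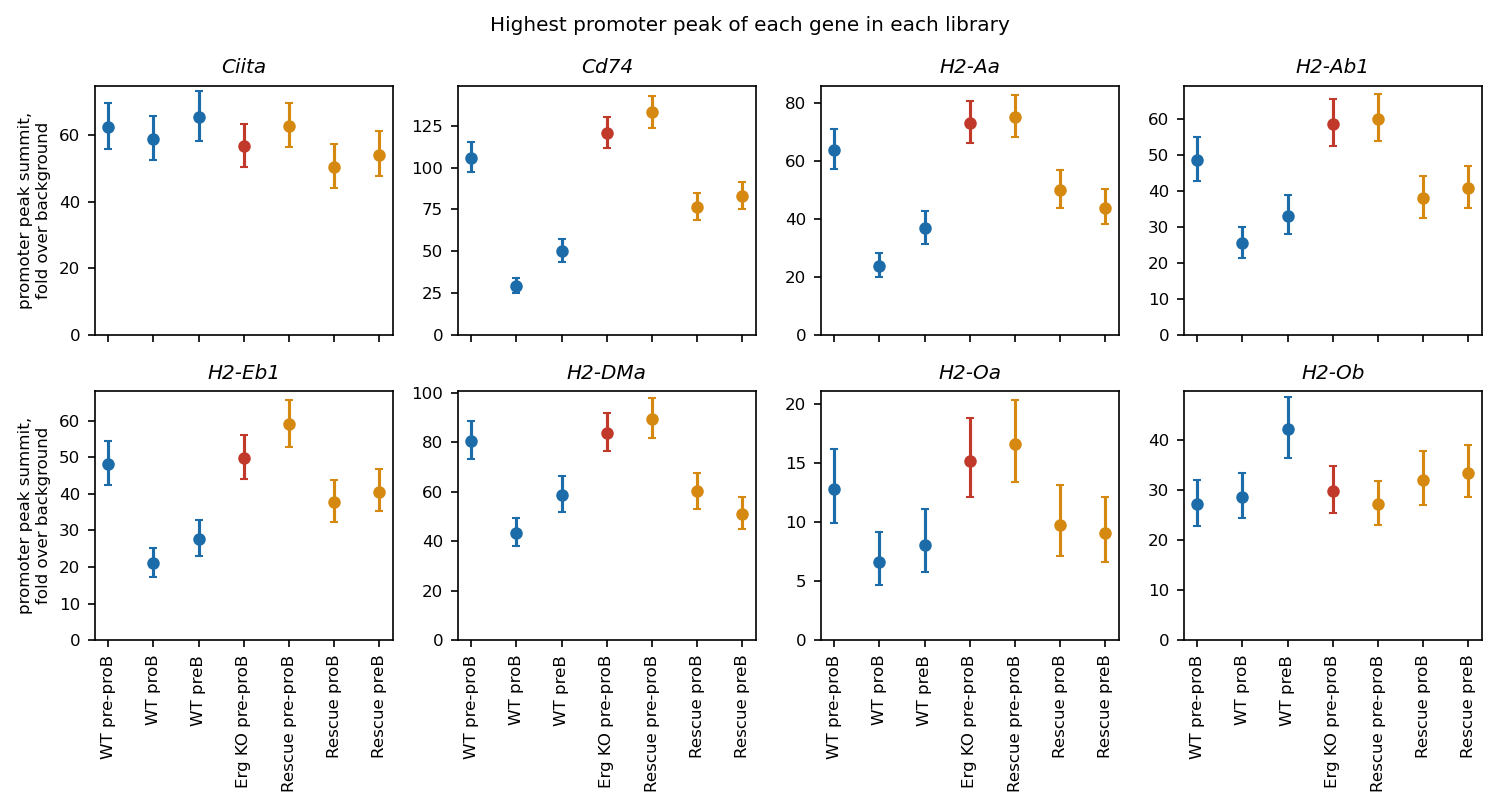
The plot of promoter levels gives, for each gene, the fold over background of its highest promoter peak (y axis, from 0) in each library (x axis), with 95% counting intervals as bars and WT in blue, Erg KO in red and Rescue in orange. Cd74, the classical chains, H2-DMa and H2-Oa are higher in each of the 3 pre-proB libraries than in any proB or preB library, whereas Ciita stays between 50.3 and 65.3 and H2-Ob between 27.1 and 42.1.

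Ciita (ENSMUSG00000022504; chr16:10480059-10528418, plus strand) encodes the class II transactivator. Its annotated start sites form 3 clusters, the second 8115 bp after the first and the third 1502 bp after the second. In the order along the gene, these correspond to the promoters that the literature numbers I, III and IV, used mainly in dendritic cells and macrophages, in lymphocytes and plasmacytoid dendritic cells, and after interferon gamma, respectively. The first cluster had a weak peak in Erg KO pre-proB (fold 3.85) and Rescue pre-proB (3.22) and none in the other 5 libraries. Both values were near the lowest level called.

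The strongest promoter peak overlapped the second cluster, at chr16:10488279, in every library. Its fold was 62.2, 58.7 and 65.3 across WT pre-proB, proB and preB, 56.6 in the Erg KO library, and 62.7, 50.3 and 54.1 across Rescue pre-proB, proB and preB. The level overlapped between stages and genotypes, but the summit was in another place. In the 3 pre-proB libraries it lay upstream of the start site, by 329 bp in WT, 242 bp in Erg KO and 234 bp in Rescue. In the 4 proB and preB libraries it lay downstream, inside the gene, by 681 bp in WT proB, 713 bp in WT preB, 685 bp in Rescue proB and 706 bp in Rescue preB. A comparison of promoter levels for Ciita is therefore a comparison of different summits across this stage boundary.

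The third cluster had a peak of its own only in the pre-proB libraries, with folds of 10.1 in WT, 12.6 in Erg KO and 11.4 in Rescue. In the proB and preB libraries a single peak, 2596 to 2705 bp wide, ran over both the second and the third cluster, and no separate summit was called at the third. The summit of this peak lay 789 to 821 bp upstream of the third cluster, so the peak could not be assigned to either cluster alone.

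Within the Ciita introns, several regions had their highest levels at the later stages, and the one with the highest fold is given first. At chr16:10508385-10509875, 19092 bp from the nearest start site, the fold was 9.69, 77.0 and 72.5 across WT pre-proB, proB and preB, and 62.6 and 72.2 at the Rescue proB and preB stages. No peak was called in Erg KO pre-proB or Rescue pre-proB. The proB and preB values exceeded those of the Ciita promoter in the same libraries, and WT proB was 7.94 times WT pre-proB (5.91 to 10.9). The 200 bases around its summit, chr16:10508775-10508974 (plus strand, GRCm38.p6), are shown because its fold was above that of the promoter at the later stages, with an E-box of the letters CAGCTG in capitals.
Ciita intron region: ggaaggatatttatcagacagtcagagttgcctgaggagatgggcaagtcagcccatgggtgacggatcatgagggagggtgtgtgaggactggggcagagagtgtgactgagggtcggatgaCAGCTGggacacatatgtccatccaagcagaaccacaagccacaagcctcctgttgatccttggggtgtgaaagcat
This palindrome was present in 25.5% of all regions and in 29.7% of the member regions. No match to an EBF1 site (TCCCNNGGGA), an ETS-IRF composite (GGAANNGAAA) or a GAS element (TTCNNNGAA) was found in its 300 bp window. Over the member regions these motifs were found in 3.13%, 7.81% and 7.81% of windows, against 1.90%, 6.40% and 8.96% of all regions.

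Other Ciita regions also differed by stage, in both directions. At chr16:10495422-10496600, in an intron 6326 bp past the last start site, the fold was 16.7, 31.4 and 62.7 across WT pre-proB, proB and preB, 19.6 in the Erg KO library, and 18.8, 41.4 and 70.1 across Rescue pre-proB, proB and preB. Both preB libraries were above both proB libraries, and these above all pre-proB libraries. A further intronic region at chr16:10515750-10516694 was between 7.86 and 8.53 in the pre-proB libraries and between 16.5 and 28.1 in the later ones. The region 3987 bp upstream of the first start site, chr16:10475685-10476583, went the other way, with 21.7, 26.4 and 27.2 in WT, Erg KO and Rescue pre-proB, 9.35 and 8.46 in Rescue proB and preB, 5.92 in WT preB and no peak in WT proB.

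**Figure D2:**
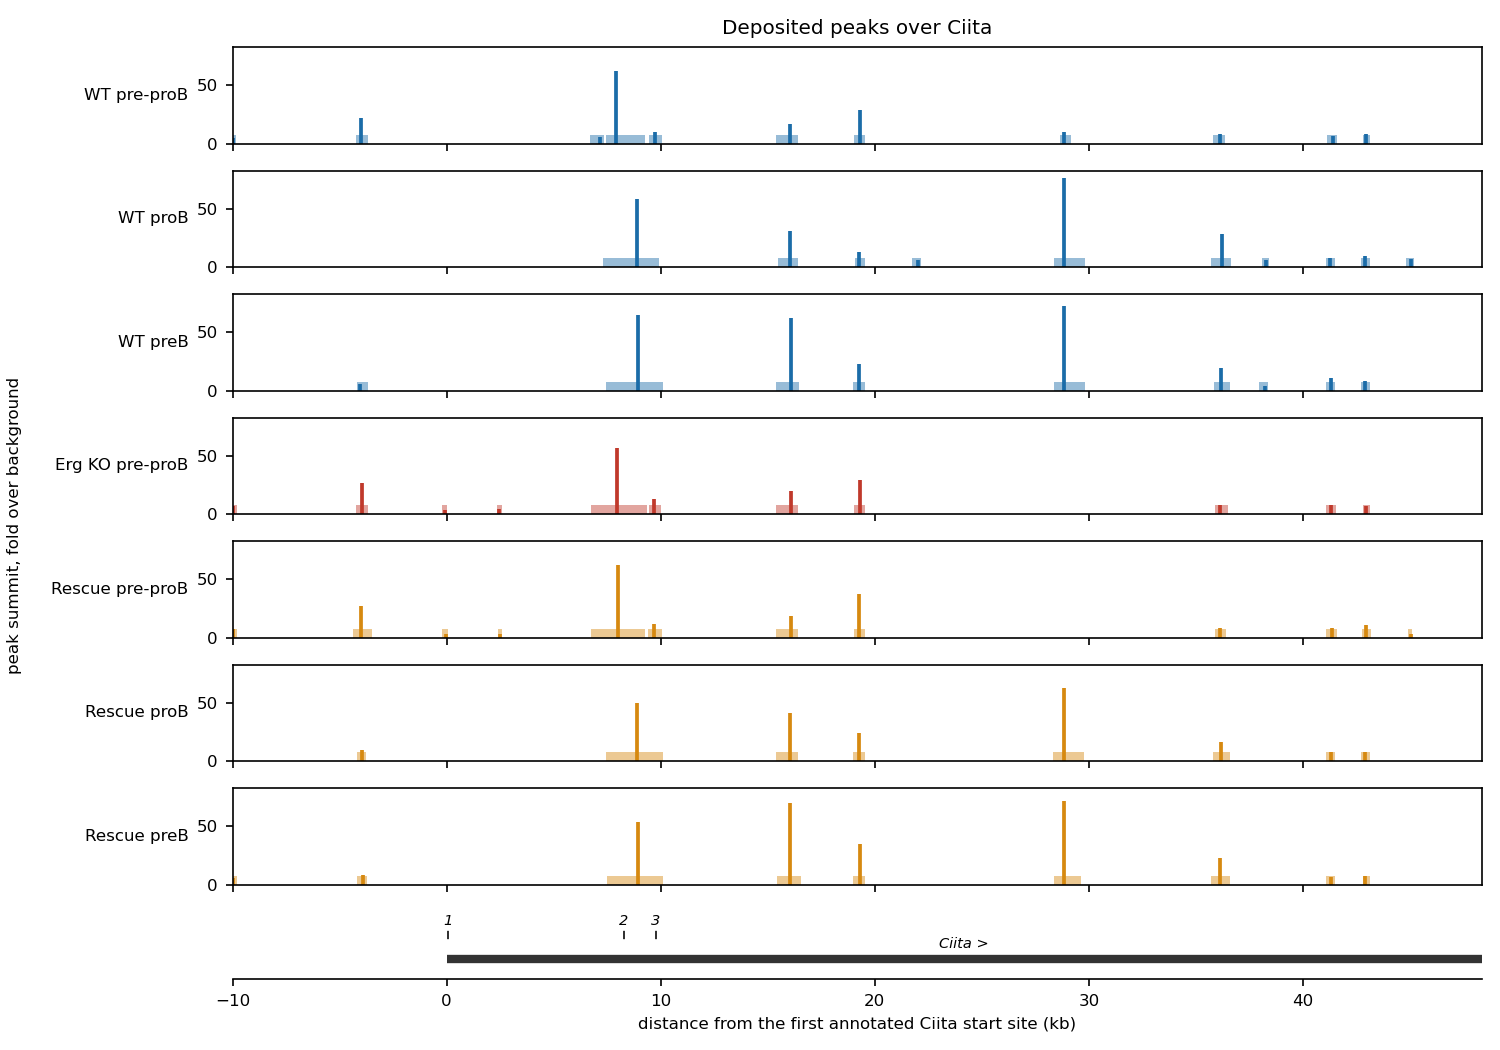
The map of Ciita shows each deposited peak in each library as a shaded bar for its extent and a vertical line at its summit whose height is the fold (y axis, from 0), against distance from the first annotated start site in kb (x axis), with the 3 start-site clusters numbered. The intronic summit 19092 bp from the nearest start site stands at 62.6 to 77.0 in the 4 proB and preB libraries and is at 9.69 or uncalled in the pre-proB libraries.

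Cd74 (ENSMUSG00000024610; chr18:60803848-60812652, plus strand) encodes the invariant chain, which assembles with class II dimers in the endoplasmic reticulum and blocks their groove. Its promoter fold was 106, 29.4 and 50.2 across WT pre-proB, proB and preB, 121 in the Erg KO library, and 133, 76.4 and 82.9 across Rescue pre-proB, proB and preB. The 3 pre-proB libraries were above the others, and WT proB was the lowest. WT proB was 0.277 times WT pre-proB (0.231 to 0.331), and 0.994% of 13478 coding promoters open in both libraries had a lower ratio.

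The extent of the Cd74 peak differed by more than its height. In the pre-proB libraries a single peak of 13602 bp in WT, 14804 bp in Erg KO and 13089 bp in Rescue ran from the promoter past the 3′ end of the gene. Only 3 peaks of the WT list, 3 of the Erg KO list and 2 of the Rescue list were at least as wide, these included. In Rescue proB and preB the peak was 4988 and 4901 bp wide and ended inside the gene. In WT proB and preB the promoter peak was 797 and 943 bp wide and separate from intronic peaks. In WT proB the highest of these, at chr18:60805414-60806899, reached a fold of 42.3, above the promoter itself.

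**Figure D3:**
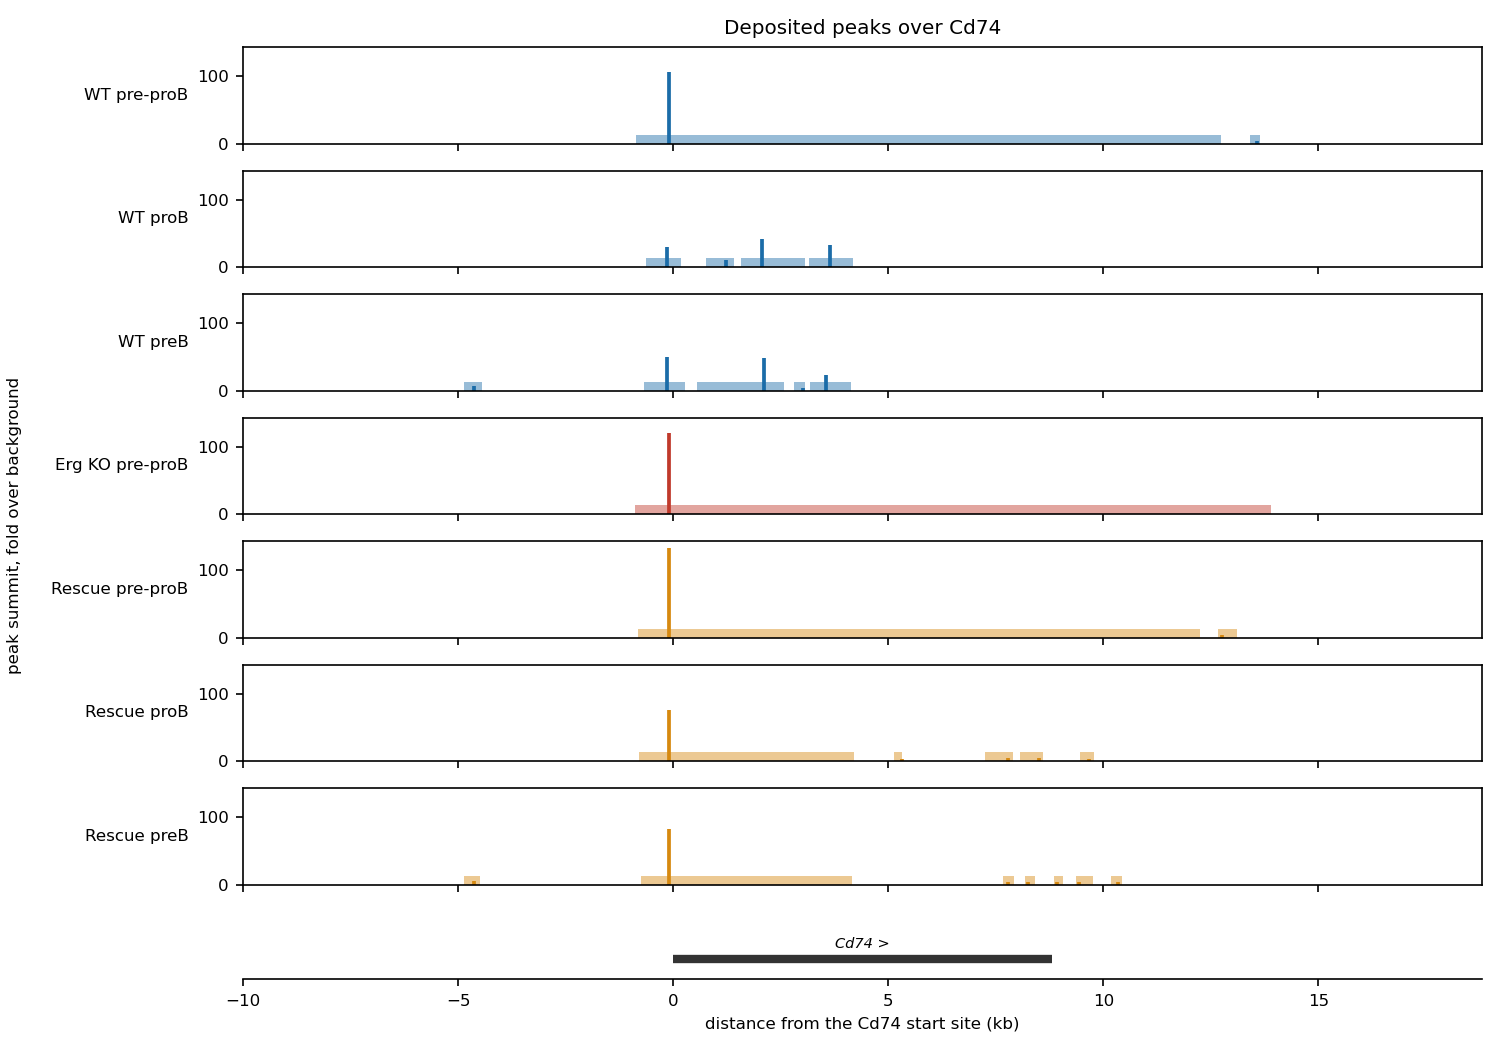
The map of Cd74 shows the extent (shaded bars) and summit fold (vertical lines, y axis from 0) of each deposited peak in each library, against distance from the start site in kb (x axis). The pre-proB libraries have 1 peak over the whole gene, 13089 to 14804 bp wide, the Rescue proB and preB peaks are 4988 and 4901 bp wide, and WT proB and preB have separate promoter and intron peaks.

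The classical chains came next. H2-Aa (ENSMUSG00000036594; chr17:34282744-34287823, minus strand) encodes the alpha chain of I-A. Its promoter fold was 64.0, 23.8 and 36.8 across WT pre-proB, proB and preB, 73.3 in the Erg KO library, and 75.2, 50.1 and 43.9 across Rescue pre-proB, proB and preB. The pre-proB libraries were again above all others, and WT proB was 0.372 times WT pre-proB (0.301 to 0.458).

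H2-Ab1 (ENSMUSG00000073421; chr17:34257689-34269419, plus strand) encodes the partner beta chain. The promoter fold was 48.7, 25.5 and 33.1 across WT pre-proB, proB and preB, 58.6 in the Erg KO library, and 60.0, 38.1 and 40.8 across Rescue pre-proB, proB and preB. WT proB was 0.524 times WT pre-proB (0.422 to 0.647), just short of a 2-fold difference.

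H2-Eb1 (ENSMUSG00000060586; chr17:34305867-34316674, plus strand) encodes the beta chain of I-E. Its promoter, which holds the module shown above, had a fold of 48.1, 21.05 and 27.6 across WT pre-proB, proB and preB, 49.8 in the Erg KO library, and 59.0, 37.6 and 40.6 across Rescue pre-proB, proB and preB. WT proB was 0.438 times WT pre-proB (0.348 to 0.549). Among the members with a range of at least 1 log2 unit, promoter levels of Cd74 and H2-Eb1 moved most alike across the 7 libraries (Pearson's r = 0.99 in log2 fold). H2-Eb1 was the closest to Cd74 of 4676 coding promoters with a range of at least 1 log2 unit, followed by Lap3, Ifi27l2a, Sgta and Slc41a2 (r = 0.98 to 0.99). For other members the closest promoter was not that of a class II gene. It was BC147527 for H2-Aa (r = 0.991), Gas7 for H2-Ab1 (0.997), Cltb for H2-DMa (0.993) and Rasl2-9 for H2-Oa (0.994). All of these values share the same 7 libraries and backgrounds. The rule used for this likeness named no gene for Ciita, whose promoter range was below 1 log2 unit.

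The classical promoters were also wide in pre-proB cells. The H2-Aa peak spanned 3203, 3399 and 3253 bp in WT, Erg KO and Rescue pre-proB, against 556 to 1173 bp in the other libraries. For H2-Eb1 the peak was 2313, 2388 and 2404 bp wide in the pre-proB libraries, against 434 to 710 bp. By contrast, the H2-DMa peak was 657 to 810 bp wide in all 7 libraries.

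Between and around the classical genes, several intergenic and intronic regions also had higher levels in pre-proB cells. The highest was at chr17:34257255-34258310, with its summit 5413 bp upstream of the nearest H2-Ab1 start site used here. The annotated span of H2-Ab1 begins inside this region. The fold of the region was 103, 27.1 and 40.5 across WT pre-proB, proB and preB, 117 in the Erg KO library, and 113, 58.1 and 48.7 across Rescue pre-proB, proB and preB. The module-bearing region 1503 bp upstream of H2-Ab1, chr17:34261301-34262199, varied most in proportion, with 55.2, 7.94 and 17.8 across WT pre-proB, proB and preB, 65.6 in the Erg KO library, and 65.9, 29.4 and 25.6 across Rescue pre-proB, proB and preB. WT pre-proB was 6.96 times WT proB there, which as a ratio of WT proB to WT pre-proB was 0.144 (0.102 to 0.199).

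Upstream of H2-Aa lay 3 regions open in all 7 libraries, at chr17:34291357-34292118, chr17:34293218-34294191 and chr17:34295797-34297029. The outermost had folds of 58.4, 12.7 and 22.1 across WT pre-proB, proB and preB, 63.9 in the Erg KO library, and 74.7, 40.3 and 33.0 across Rescue pre-proB, proB and preB. The other 2 were between 55.8 and 75.1 in the pre-proB libraries and between 18.5 and 38.8 in the later ones, so the groups did not overlap at any of the 3. Other regions between H2-Aa and H2-Eb1 went another way. At chr17:34300678-34301589 the fold was 15.1 and 13.6 in Rescue proB and preB, 6.61 in Rescue pre-proB and 5.92 in WT preB, with no peak in the other 3 libraries, and chr17:34299217-34299815 had peaks in Rescue proB (6.68) and Rescue preB (4.33) only.

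H2-Eb2, the neighbouring beta chain gene, had the opposite pattern. Its promoter region, chr17:34325114-34326019, had folds of 31.2 and 52.2 at the WT proB and preB stages and of 30.5 and 42.1 at the same Rescue stages, but only 3.04 in Rescue pre-proB, and no peak in WT or Erg KO pre-proB. A second region, chr17:34326221-34326838, was between 13.6 and 22.9 in the 4 later libraries and had no peak in any pre-proB library. The module at H2-Eb2 therefore sat in a region open at the later stages, while those at H2-Aa, H2-Eb1 and upstream of H2-Ab1 sat in regions with higher levels in pre-proB cells.

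**Figure D4:**
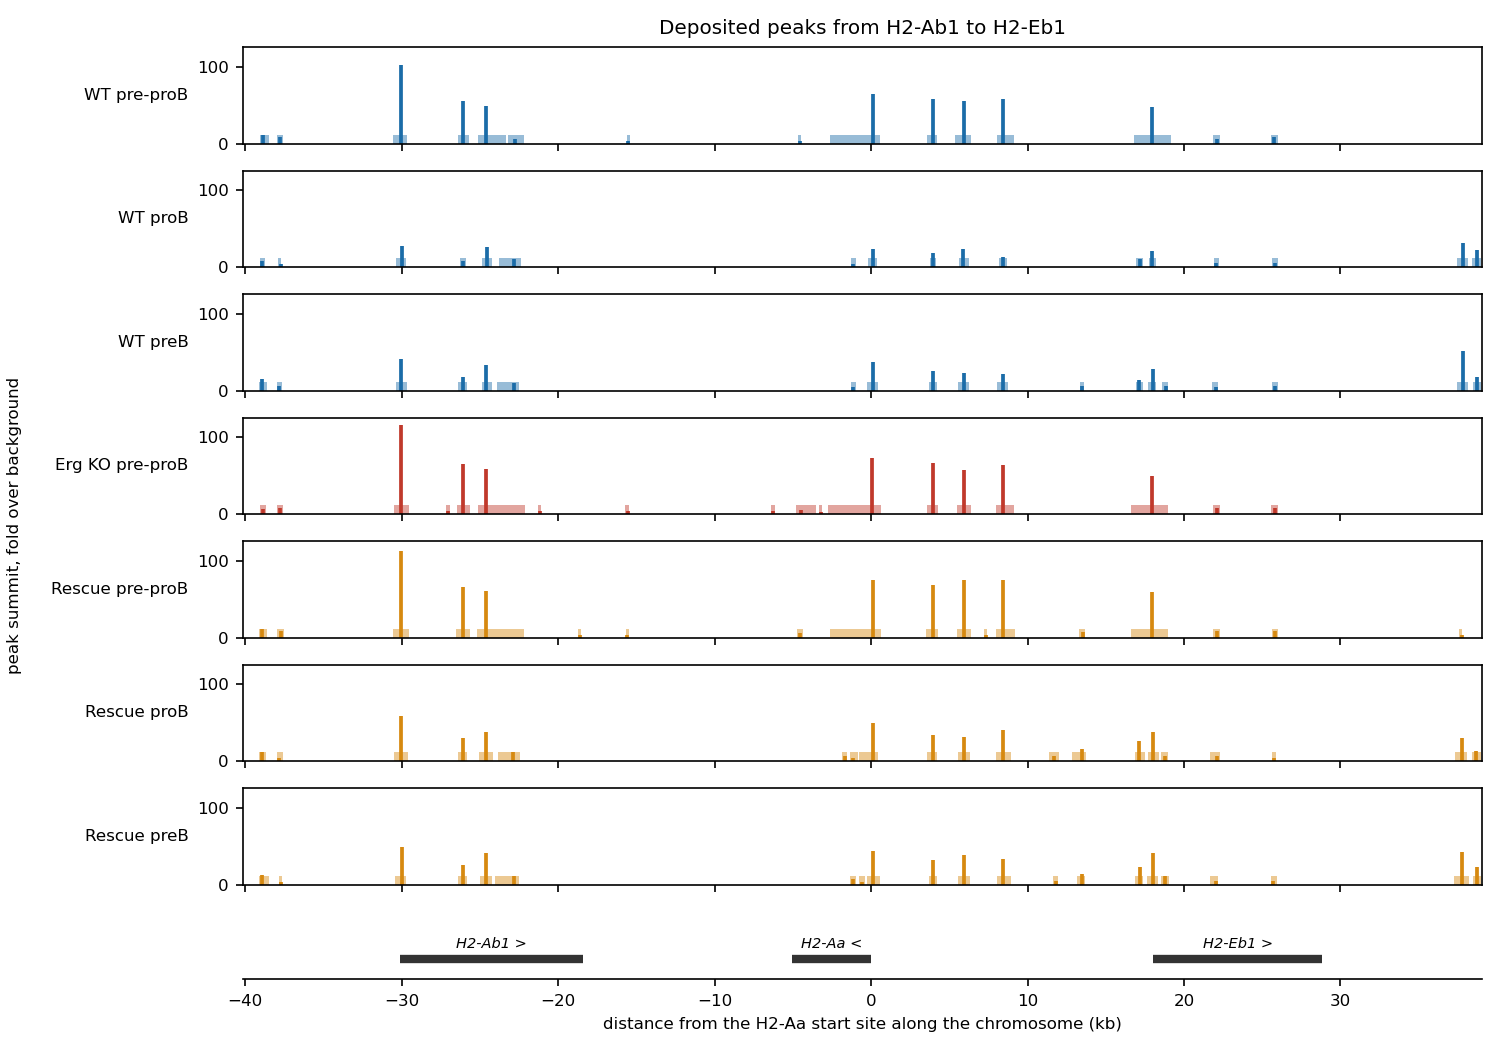
The map from H2-Ab1 to H2-Eb1 shows the extent (shaded bars) and summit fold (vertical lines, y axis from 0) of each deposited peak in each library, against distance in kb along the chromosome from the H2-Aa start site (x axis). Summits over H2-Ab1, H2-Aa and the 3 regions upstream of H2-Aa are highest in the 3 pre-proB libraries, while the H2-Eb2 promoter region at the right edge has folds of 30.5 to 52.2 in the proB and preB libraries only, apart from 3.04 in Rescue pre-proB.

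H2-DMa (ENSMUSG00000037649; chr17:34119541-34139101, plus strand) encodes the alpha chain of H2-M, which exchanges the invariant chain remnant for peptide. Its promoter fold, at a start site inside the annotated gene, was 80.6, 43.4 and 58.7 across WT pre-proB, proB and preB, 83.9 in the Erg KO library, and 89.5, 60.1 and 51.2 across Rescue pre-proB, proB and preB. Its upstream start site shares a region with the promoter of Brd2, a widely expressed bromodomain gene, and was not assigned. H2-DMa followed the classical chains with a smaller range.

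H2-Oa (ENSMUSG00000024334; chr17:34092340-34095234, plus strand) and H2-Ob (ENSMUSG00000041538; chr17:34238903-34254414, plus strand) encode the chains of H2-O, an inhibitor of H2-M found in B cells. The H2-Oa promoter had low folds of 12.8, 6.65 and 8.11 across WT pre-proB, proB and preB, 15.2 in the Erg KO library, and 16.6, 9.80 and 9.08 across Rescue pre-proB, proB and preB. The H2-Ob promoter had 27.1, 28.6 and 42.1 across WT pre-proB, proB and preB, 29.9 in the Erg KO library, and 27.2, 32.1 and 33.4 across Rescue pre-proB, proB and preB. At these highest promoter peaks H2-Oa was highest in pre-proB cells, whereas the lowest H2-Ob values were those of WT and Rescue pre-proB. The ratio of WT proB to WT pre-proB at H2-Ob was 1.05 (0.834 to 1.33), so these stages were not separated there. The H2-Ob summit lay 832 to 918 bp downstream of its start site, in an intron, in all 7 libraries. A weaker, separate peak over the H2-Ob start sites went the way of H2-Oa. Its fold was 13.6, 14.5 and 11.6 in WT, Erg KO and Rescue pre-proB, and 9.23 in WT proB. In WT preB and in Rescue proB and preB a single peak ran over both places.

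The stage comparison asked where accessibility differs as WT cells pass from pre-proB to proB and from proB to preB. Of the 49 WT pre-proB peaks at the members, 11 had no overlapping WT proB peak (34.1% of all WT pre-proB peaks had none), and of 47 WT proB peaks 5 had no WT pre-proB peak (31.9% of all). Both shares were below those of the whole lists. Among 34 member regions with a peak in both, 11 were at least 2 times lower in WT proB (16.0% of all such regions) and 3 at least 2 times higher (13.8% of all). The 11 lower regions were the Cd74 region, taken at its highest summit, the H2-Aa and H2-Eb1 promoters, both regions upstream of H2-Ab1, the 3 upstream of H2-Aa, and 1 each in Ciita, in H2-Ob and downstream of H2-Oa. The 3 higher regions were 2 in Ciita introns and 1 next to H2-DMb2, which encodes a beta chain of H2-M. The median log2 ratio was -0.77 over the member regions and -0.07 over all regions.

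From proB to preB the WT libraries differed less. Of 47 WT proB peaks, 4 had no WT preB peak (26.7% of all), and of 49 WT preB peaks 6 had no WT proB peak (10.7% of all). Among 36 regions with a peak in both, 2 were at least 2 times higher in WT preB (5.18% of all), namely the region 1503 bp upstream of H2-Ab1 and one in H2-Ob, and 1 in an H2-DMa intron was at least 2 times lower (8.53% of all). Every member promoter had a higher fold in WT preB than in WT proB, from a ratio of 1.11 for Ciita to 1.71 for Cd74 (1.39 to 2.11). Of 13371 coding promoters open in both libraries, 51.5% had a lower ratio than Ciita and 98.1% a lower ratio than Cd74. The intervals for Ciita (0.947 to 1.31) and H2-Oa (0.750 to 1.99) included 1.

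Over all 64 member regions, 32 had a peak in all 7 libraries (50%, against 32.0% of all regions). Another 15 had peaks in pre-proB libraries only (23.4%, against 22.5%), and 6 in proB or preB libraries only (9.38%, against 23.5%). Without the 3 Rescue libraries these counts were 32, 15 and 7 of 59 regions (54.2%, 25.4% and 11.9%, against 36.3%, 28.6% and 22.1% of all regions).

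The Erg comparison asked whether pre-proB cells without Erg differ at these genes. Of 49 WT pre-proB peaks 3 had no Erg KO peak (6.88% of all), and of 51 Erg KO peaks 8 had no WT pre-proB peak (13.6% of all). Among 41 regions with a peak in both, 0 were at least 2 times higher in Erg KO (0.280% of all) and 0 at least 2 times lower (0.270% of all). Promoter ratios of Erg KO to WT ran from 0.910 for Ciita (0.776 to 1.07) to 1.21 for H2-Ab1 (1.02 to 1.43). All 8 intervals lay within 2-fold either way, and those of Cd74 (1.02 to 1.28) and H2-Ab1 lay above 1. The median fold of regions open in all libraries was itself higher in Erg KO by 0.05 log2 units. Scaled for this shift, the log2 ratio was 0.14 rather than 0.19 for Cd74 and 0.22 rather than 0.27 for H2-Ab1. No interval was computed for the scaled ratios. The WT peak with the highest fold among the 3 was the intronic Ciita region at chr16:10508385-10509875 (9.69), and the others were near H2-DMa, at 3.68 and 5.04. The 8 regions with a peak in Erg KO but none in WT pre-proB had folds of 2.93 to 4.21. Of the 10 B-lineage markers, Cd79a, Vpreb1 and Pax5 had low promoter folds of 11.4, 8.53 and 3.68 in the WT pre-proB library, and Erg KO lacked a peak at each of them.

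The Rescue comparisons asked the same with the rearranged heavy chain present. At the pre-proB stage, 5 of 49 WT peaks had no Rescue peak (5.88% of all) and 9 of 52 Rescue peaks had no WT peak (15.6% of all). Among 40 regions in both, 0 were at least 2 times higher in Rescue (0.537% of all) and 0 lower (0.275% of all). Of 51 Erg KO peaks, 6 had no Rescue pre-proB peak (6.57% of all), and of 52 Rescue pre-proB peaks 6 had no Erg KO peak (9.81% of all).

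At the proB stage, 5 of 47 WT peaks had no Rescue peak (20.6% of all) and 11 of 49 Rescue peaks had no WT peak (19.8% of all). Among 35 regions in both, 5 were at least 2 times higher in Rescue (5.32% of all) and 0 at least 2 times lower (6.52% of all). These 5 were the H2-Aa promoter, both regions upstream of H2-Ab1, the outermost region upstream of H2-Aa, and the region downstream of H2-Oa. The median log2 ratio was 0.37 over member regions and 0.01 over all. For the promoters, Rescue proB was 2.60 times WT proB at Cd74 (2.15 to 3.16), 2.10 times at H2-Aa (1.69 to 2.63), 1.79 times at H2-Eb1 (1.40 to 2.29), 1.50 times at H2-Ab1 (1.19 to 1.88) and 1.39 times at H2-DMa (1.16 to 1.66). Ciita had 0.857 times the WT level (0.720 to 1.02). The summed fold of the conventional dendritic markers was 131 in WT proB and 199 in Rescue proB. Of these 10 promoters, 7 were higher in Rescue proB, among them Clec9a (31.6) and Xcr1 (25.2), which had no WT proB peak, whereas Ccr7 was lower (20.05 against 34.9) and 2 had no peak in either library. Counts for other lists went the same way, with 7 higher and 1 lower for plasmacytoid dendritic and 5 and 1 for myeloid markers. They were 10 and 3 for class II regulators and 7 and 2 for class I genes. The innate lymphoid list and the class II partners each had 4 higher and 3 lower. The B-lineage list (2 higher, 8 lower) and the T-cell list (2 and 5) went the other way. The share over all coding promoters was not computed, so these counts cannot be set against it. Of 13927 coding promoters open in both libraries, 12.4% had a lower ratio than Ciita and 59.3% a lower ratio than H2-Ob (1.12).

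**Figure D5:**
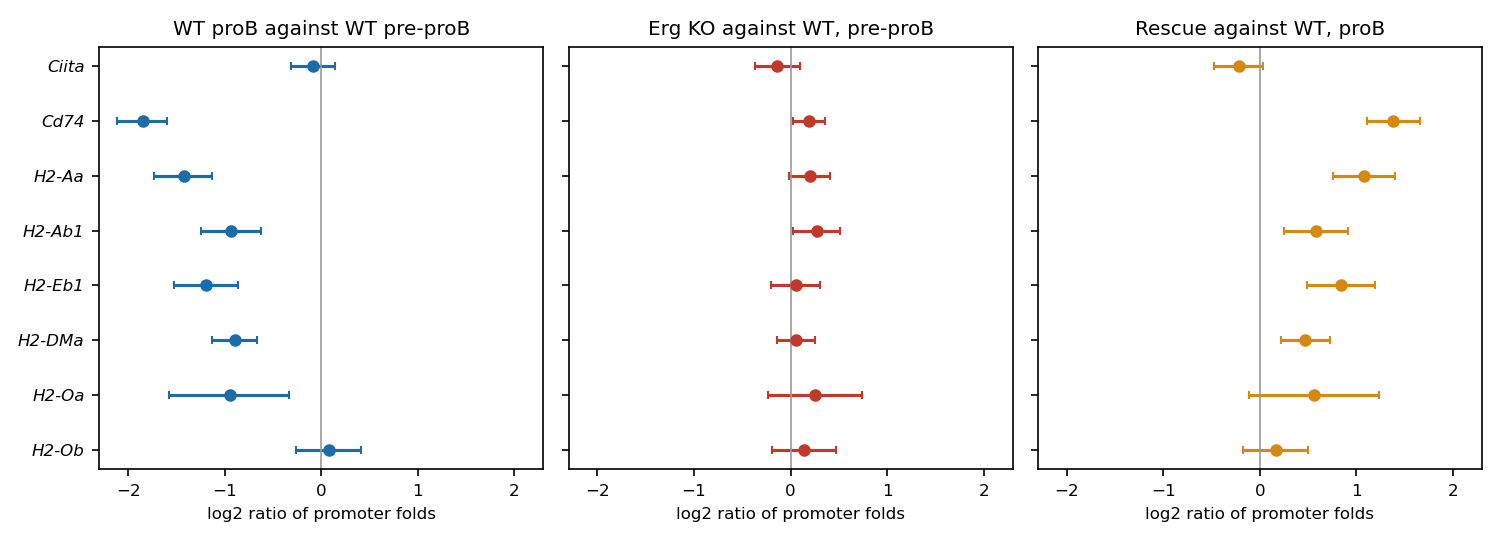
The plot of promoter ratios gives the log2 ratio of promoter folds (x axis) for each gene (y axis) in 3 comparisons, with exact 95% intervals over counting error as bars and a line at 0. Cd74, the classical chains, H2-DMa and H2-Oa lie left of 0 for WT proB against WT pre-proB and right of 0 for Rescue against WT proB, while for Erg KO against WT pre-proB all ratios lie between 0.910 and 1.21 before the log.

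At the preB stage the difference was smaller. In all, 1 of 49 WT peaks had no Rescue peak (8.02% of all) and 10 of 54 Rescue peaks had no WT peak (17.9% of all). Among 40 regions in both, 1 was at least 2 times higher in Rescue (3.05% of all), upstream of H2-Eb1 at chr17:34300678-34301589, and 0 were at least 2 times lower (0.885% of all). Rescue preB was 1.65 times WT preB at Cd74 (1.40 to 1.95) and 1.47 times at H2-Eb1 (1.17 to 1.86), and 0.794 times at H2-Ob (0.640 to 0.984). Regions open in all libraries were themselves higher in Rescue preB than in WT preB by a median of 0.21 log2 units, and higher in Rescue than in WT pre-proB by 0.15.

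The wider pathway was read from lists chosen for its roles. Of 7 class II partners found in the annotation, 6 had a promoter peak in WT and Erg KO pre-proB and 7 in each other library, H2-Eb2 being the one without. All 13 class II regulators, among them the RFX and NF-Y subunit genes, and all 9 class I pathway genes had a promoter peak in every library.

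Markers of other class II-expressing cells varied in both directions. All 10 promoters of the conventional dendritic list, Itgax (the gene for CD11c) included, had a peak in each of the 3 pre-proB libraries, against 5 and 6 at the WT proB and preB stages and 8 and 7 at the same Rescue stages. Of 9 plasmacytoid dendritic promoters, 9 had a peak in each pre-proB library and 7 or 8 in the others, with summed folds of 460 to 543 and 248 to 394. Gene by gene, Itgax, Clec9a, Cd209a, Clec10a and Cd86 of the conventional list were higher in every pre-proB library than in any later one, and Zbtb46 (8.92 to 15.2 against 35.6 to 61.5) and Ccr7 (15.6 to 18.6 against 20.05 to 34.9) were lower. Of the plasmacytoid list 6 were higher, 2 overlapped and Tcf4 was lower, at 59.2 to 62.4 against 62.8 to 144. Cd209a and Clec10a had no promoter peak in any proB or preB library. The myeloid list had 6 or 7 of 10 promoters with a peak in the pre-proB libraries and 5 or 6 in the later ones, and Elane and S100a8 had none in any library. The B-lineage list had 9 of 10 in pre-proB cells of WT, 6 in those of Erg KO and 7 in those of Rescue, and 10 of 10 in the later libraries. T-cell promoters with a peak numbered 2 to 7 of 10, with none at Cd3e or Cd3d, and innate lymphoid ones 5 to 7 of 10, with none at Ncr1.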

How the data were processed

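ATAC-seq libraries of 7 groups (1 library each, grouped by sample title) were analysed from the deposited peak lists, 1 list per library without pooling. Per the methods and the submitters' processing notes, which name CASAVA 1.8.2, Bowtie2, Picard and MACS2, reads were aligned to mm10. For the other tools the version is not given in the sources used here, nor are options. The methods name sonication and the labels Tn5, which would affect where fragments end. As deposited, the score equals the integer part of the −log10 q times 10. The deposited fold divides summit pileup plus 1 by background pileup plus 1, and the −log10 p and −log10 q deposited with it belonged to the summit.

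Every fold was a whole multiple of a step within 0.02, which gave each summit pileup and background. Peaks overlapping by at least 1 bp were shared, and overlapping peaks of all libraries were merged into regions. Ratios carry exact conditional binomial intervals at the 95% level. Python 3.11.15, pandas 2.3.3, numpy 2.4.6 and scipy 1.17.1 were used, and the calculations were tested on simulated data. The genes named were all 8 members, genes of the pathway lists whose promoter was not open in all 7 libraries, and the 5 genes most like Cd74. The gene most like each of H2-Aa, H2-Ab1, H2-DMa and H2-Oa was also named. Neighbouring genes that share a region and cell type markers were named after their values were seen. Members, lists and rules were chosen with earlier results of these data known. No significance test was run. Alternatives were stricter peaks, lists of equal length, other flanks, windows and overlaps, another scaling, and Rescue stages by source name.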

Additional observations from a re-analysis of the deposited data

Results flagged for a closer look

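In the step from proB to preB, 3 member promoters went opposite ways in WT and Rescue. The H2-Aa promoter fold changed by a log2 ratio of 0.63 in WT and -0.19 in Rescue, the H2-DMa promoter by 0.44 and -0.23, and the H2-Oa promoter by 0.29 and -0.11. Each direction rests on 1 library per stage and genotype, and the difference between the genotypes was not tested. Over all 13243 coding promoters with a peak in the 4 libraries, 3654 (27.6%) went opposite ways in this step. The Rescue stage labels conflict between title and source name for all of these Rescue libraries.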

How the results depend on the processing

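The 8 members kept a promoter peak in all 7 libraries under every alternative tried, and no promoter ratio past 2-fold changed its direction under another scaling or under the Rescue stages by source name. Smaller ratios did. For Rescue against WT pre-proB, the log2 ratio by source name was below 0 for every member but H2-Ob. It went from 0.33 to -0.35 at Cd74 and from 0.15 to -0.66 at H2-DMa. The Rescue library with the source name pre-proB had a Cd74 fold of 82.9, and the one with proB 133. The higher level in every pre-proB library therefore rests on the titles. With gene bodies only, peaks at the members numbered 30 in WT pre-proB, 31 in WT preB, 32 in Erg KO and Rescue pre-proB, and 30 in Rescue proB and preB. With a −log10 q of at least 10, unshared peaks numbered 6 for WT pre-proB against WT proB, 3 for Erg KO against WT pre-proB, 2 for WT against Rescue pre-proB and 3 in reverse, 7 for Rescue against WT proB, 2 for WT against Rescue preB and 3 in reverse, and 1 each way between Erg KO and Rescue pre-proB. With all lists cut to 76465 peaks they numbered 6 for WT pre-proB against WT proB, 2 for Erg KO against WT pre-proB, 2 each way between WT and Rescue pre-proB, 4 for Rescue against WT preB, and 1 each way between Erg KO and Rescue pre-proB. When 50% of both peaks had to overlap, they numbered 18 for WT pre-proB against WT proB and 16 in reverse, 7 for WT proB against WT preB, 9 and 8 for WT pre-proB against Erg KO and Rescue pre-proB, 11 for WT against Rescue proB and 7 for WT against Rescue preB.

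With Rescue stages by source name, unshared peaks numbered 9 for WT against Rescue pre-proB, 3 for WT against Rescue preB and 13 for Erg KO against Rescue pre-proB, and 6 promoters were past 2-fold for Rescue against WT proB, where 2 were by title. Regions at least 2 times higher and lower then numbered 4 and 6 for Rescue against WT pre-proB, 15 and 3 at the proB stage, and 2 higher at the preB stage. With folds scaled to the regions open in all libraries, 0 regions were at least 2 times lower in WT preB than in WT proB, 1 lower in Rescue than in WT proB, and 0 higher in Rescue than in WT preB. The region alternatives and the counts without the Rescue libraries were chosen after seeing the data. The cause of these differences was not tested, beyond fewer peaks under the stricter lists. No paired analysis was possible because each group has 1 library and the labels give no replicate numbers. A summit pileup is a maximum, and weak regions lie near the lowest called level.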
